A study of Mus musculus with 12 samples.

Results

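The genes described here are 27 protein-coding genes. By group mean, though not in every culture, they were on in immortalised mouse embryonic fibroblasts lacking Casp8 and Mlkl, called the Casp8 line. In such fibroblasts lacking Fadd and Mlkl, called the Fadd line, they were at or near 0. They were chosen by level, in TPM (transcript abundance: counts divided by gene length and scaled to the same total in every library). Each gene had a TPM under 0.1 in all 6 Fadd-line libraries and a mean TPM of 1 or more in each of the 2 Casp8-line groups. Of 21900 protein-coding genes measured, 10178 met the condition on the Casp8 line. With the condition on the Fadd line, 32 were left. Taken out by symbol were 5, namely Lama4 and the Y-linked genes Ddx3y, Eif2s3y, Kdm5d and Uty. The difference between the lines is therefore how the 27 were found, and it is given as a description with no test.

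The 4 groups hold 3 cultures each. The Casp8 line is Casp8-/- Mlkl-/- cells with an empty vector (Casp8/Mlkl knockout) or with Casp8 re-expressed (Casp8 put back). The Fadd line is Fadd-/- Mlkl-/- cells with an empty vector (Fadd/Mlkl knockout) or with Fadd re-expressed (Fadd put back). All cells carry SV40 large T antigen and are labelled Mlkl-/-, all were untreated, and all were harvested 24 h after plating. The labels call the cultures of a group independent. They do not give the number of embryos or clones behind a line, so the 2 lines can differ in origin as well as in genotype, and these cannot be told apart here.

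FADD and caspase-8 act together below death receptors, where caspase-8 starts apoptosis and restrains necroptosis, and MLKL carries out necroptosis. Fibroblasts from embryos keep a record of the body region and tissue they came from in the transcription factors they express, most of all homeobox genes. Homeobox and other developmental regulators, Wnt and BMP ligands and matrix proteins are among the genes by which fibroblast populations usually differ.

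Total expected counts ranged from 33918359 to 59388559 per library. Casp8 stood at 3.51, 3.11 and 3.34 TPM in the Casp8/Mlkl knockout libraries and at 28.6, 70.8 and 76.5 TPM with Casp8 put back, and Fadd at 0.01 to 0.02 TPM in the Fadd/Mlkl knockout and 3.05 to 4.24 TPM with Fadd put back. Mlkl, which all groups are labelled to lack, was at 1.43 to 3.82 TPM in the Casp8 line and 2.24 to 6.22 TPM in the Fadd line. The labels do not say which part of Mlkl was deleted, so its gene-level TPM does not check that label. The fibroblast genes Vim, Col1a1 and Twist1 were present in all 12 libraries, while Thy1 was at 0.06 TPM or less in each. Both replicate 1 libraries of the Casp8 line stood apart from its other libraries. On the first principal component, which held 52.3% of the variance, they lay at -22.3 (knockout) and -36.3 (Casp8 put back), the other Casp8-line libraries at -103 to -81.9 and the Fadd line at 38.3 to 114. The 4 Y-linked genes summed to 12.4 TPM in knockout replicate 1 and 31.0 TPM in put-back replicate 1, against 46.2 to 63.0 TPM in replicates 2 and 3 and 0 in the Fadd line. Xist was at 0 in every library.

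RefSeq promoter sequence (GRCm38.p6) was at hand for 19 of the 27 genes, or 70.4%. This is under the 80% needed for a comparison of base composition with other genes, so none was made. The 5 shown are examples of genes with a low or a better kept level in the replicate 1 libraries. Of these, only S1pr3 and Usp13 were called in the main edgeR test of replicate number described below. S1pr3, Usp13 and Ccdc85a were at 16.9% or less of the mean of replicates 2 and 3 in both replicate 1 libraries, and Sox2 and Zfp503 at 35.2% or more. Each run is upstream sequence only, ends at or before the annotated gene start, is written 5′ to 3′ on the gene's strand, and has its CG dinucleotides in capitals.
S1pr3 (chr13:51408368-51408617, plus strand, 9 CG): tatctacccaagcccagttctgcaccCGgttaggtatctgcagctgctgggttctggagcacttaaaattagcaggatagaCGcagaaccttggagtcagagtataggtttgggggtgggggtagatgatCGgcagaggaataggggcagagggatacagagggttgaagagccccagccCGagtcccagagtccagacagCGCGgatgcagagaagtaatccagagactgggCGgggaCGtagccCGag
Usp13 (chr3:32817376-32817545, plus strand, 19 CG): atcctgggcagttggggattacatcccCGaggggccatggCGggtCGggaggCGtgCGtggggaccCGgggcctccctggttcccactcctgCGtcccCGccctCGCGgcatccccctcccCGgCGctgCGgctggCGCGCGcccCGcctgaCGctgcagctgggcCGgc
Ccdc85a (chr11:28584325-28584574, minus strand, 10 CG): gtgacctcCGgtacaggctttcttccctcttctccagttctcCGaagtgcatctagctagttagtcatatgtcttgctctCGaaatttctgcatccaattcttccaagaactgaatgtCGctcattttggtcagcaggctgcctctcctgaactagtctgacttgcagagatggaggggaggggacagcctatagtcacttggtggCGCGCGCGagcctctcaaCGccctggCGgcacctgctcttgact
Sox2 (chr3:34649745-34649994, plus strand, 27 CG): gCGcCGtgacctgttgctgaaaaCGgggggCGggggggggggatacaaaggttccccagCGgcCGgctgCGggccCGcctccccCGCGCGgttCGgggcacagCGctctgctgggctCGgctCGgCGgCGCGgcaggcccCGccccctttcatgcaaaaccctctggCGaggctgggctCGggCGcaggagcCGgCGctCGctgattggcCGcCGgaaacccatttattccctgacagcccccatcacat
Zfp503 (chr14:21989602-21989851, minus strand, 13 CG): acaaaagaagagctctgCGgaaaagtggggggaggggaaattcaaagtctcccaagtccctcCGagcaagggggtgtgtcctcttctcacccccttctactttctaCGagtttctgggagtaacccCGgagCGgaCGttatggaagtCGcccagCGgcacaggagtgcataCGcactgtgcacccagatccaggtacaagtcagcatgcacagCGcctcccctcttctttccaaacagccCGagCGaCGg
GC content over these windows was 77.1% for Usp13, 56.4% for S1pr3, 53.2% for Ccdc85a, 72.0% for Sox2 and 57.2% for Zfp503. The Usp13 window holds 170 bases and the others 250, and nothing about replicate 1 is drawn from these values.

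The 27 genes were modestly expressed. Their mean TPM over the 6 Casp8-line libraries ran from 1.20 (Klf12) to 21.5 (Lhx9), with a median of 2.38, against a median of 11.2 for the 10178 protein-coding genes on in this line. Only Lhx9, Khdrbs3, Sox2, Alkal1, S1pr3 and Arhgap24 averaged 5 TPM or more. In the Fadd line no member passed 0.09 TPM, and 20 members had at most 20 counts over its 6 libraries together. Sox2, Slc8a1 and Ndn had 0 counts there, which allows up to 3 counts of 284269656, or 0.0106 CPM (counts scaled by library total), and covers counting error alone. Lhx9 had the most, 136 counts, and S1pr3 had 102. Lhx9, Irx3 and Wnt5a lay just inside the limit with a highest Fadd-line value of 0.09 TPM, and Hey2, Msc and Tll1 lay just outside at 0.1 TPM. Klf12 lay just inside the minimum at 1.00 TPM with Casp8 put back, and Pcdhga12 just outside at 0.977 TPM.

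**Figure D1:**
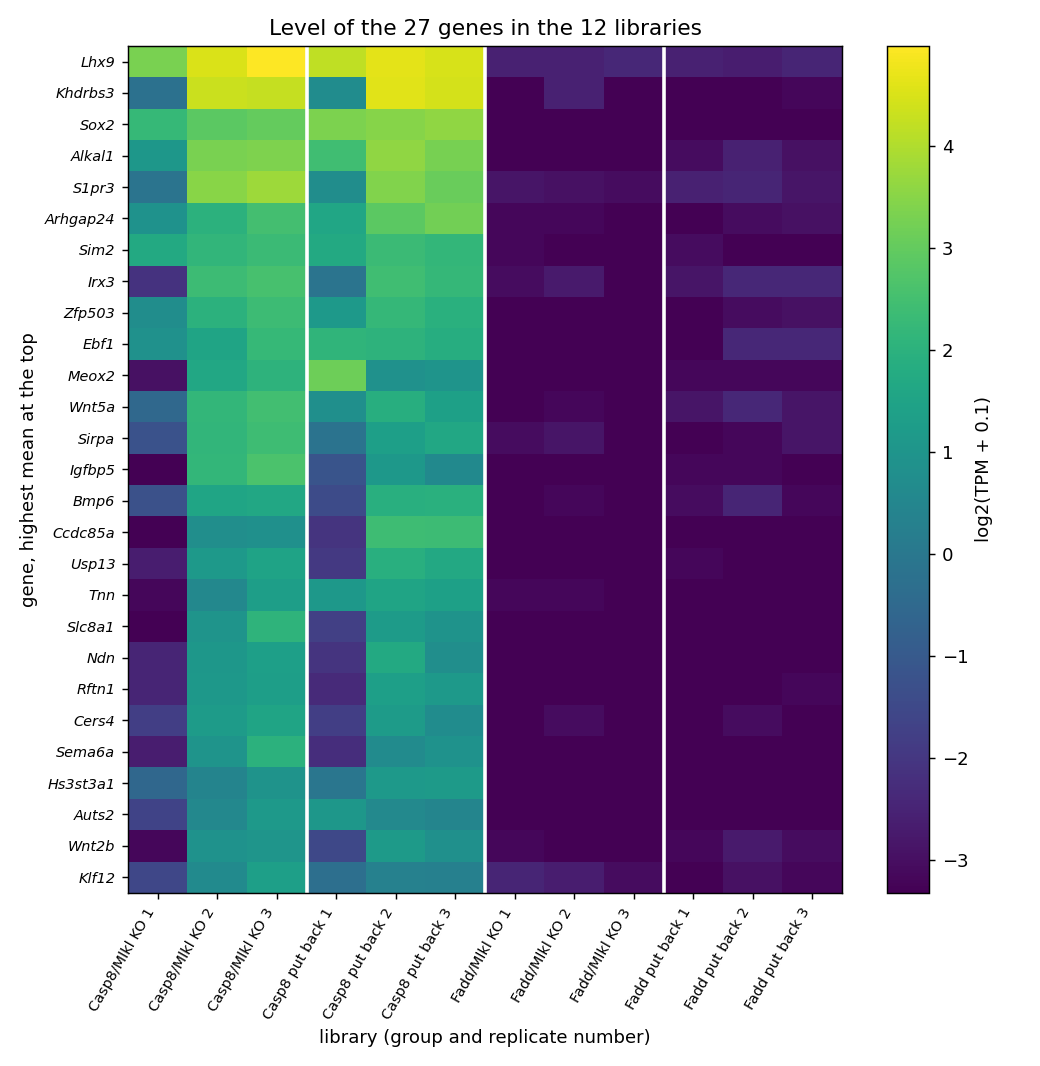
Level of each gene (rows, highest mean at the top) in each library (columns, grouped as Casp8/Mlkl knockout, Casp8 put back, Fadd/Mlkl knockout and Fadd put back), coloured by log2(TPM + 0.1). Replicates 2 and 3 of both Casp8-line groups were bright for all 27 genes, replicate 1 was dark for many, and the Fadd line was dark throughout, as the choice of genes requires.

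By roles assigned after the genes were seen, 8 of the 27 code for transcription factors. Lhx9, a LIM homeobox factor of gonad and limb development (GRCm38 chromosome 1, 138825186 to 138848577, minus strand), was at 9.82, 22.8 and 31.4 TPM in the knockout libraries 1 to 3 and at 17.9, 24.8 and 22.03 TPM with Casp8 put back. It was the most abundant of the set in all 6 Casp8-line libraries, and the groups overlapped. Sox2, which maintains pluripotent and neural progenitor cells (chromosome 3, 34650405 to 34652461, plus strand), was at 4.59, 7.24 and 7.94 TPM in the knockout and at 9.93, 11.1 and 12.2 TPM with Casp8 put back. Here the groups did not overlap, with all knockout libraries the lower, an order found in 4.85% of all genes tested. Sim2, a basic helix-loop-helix factor of the single-minded family, was the steadiest of the 27, at 3.20, 4.33 and 4.94 TPM in the knockout and 3.16, 4.94 and 4.40 TPM with Casp8 put back.

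Other factors varied more. Irx3, an Iroquois homeobox factor of limb and neural patterning, was at 0.13, 5.12 and 5.81 TPM in the knockout and 0.82, 5.36 and 4.47 TPM with Casp8 put back, so that both replicate 1 libraries were far below the rest. Zfp503, a zinc finger repressor, was at 1.58, 3.90 and 5.07 TPM in the knockout and 2.09, 4.52 and 3.74 TPM with Casp8 put back. Ebf1, a factor of B cell and mesenchymal development, was at 1.72, 2.75 and 4.58 TPM in the knockout and 4.25, 3.99 and 3.53 TPM with Casp8 put back, with no deficit in put-back replicate 1. Klf12, a Krüppel-like repressor, was at 0.24, 1.46 and 2.48 TPM in the knockout and 0.72, 1.16 and 1.13 TPM with Casp8 put back. Meox2, a homeobox factor of somites and muscle, split the replicate 1 libraries. It was at 0.03, 3.08 and 4.06 TPM in the knockout and 8.72, 1.74 and 1.88 TPM with Casp8 put back, so its lowest and its highest Casp8-line value were both in replicate 1.

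Among 3 further nuclear proteins, Khdrbs3, an RNA-binding regulator of splicing (chromosome 15, 68928420 to 69101211, plus strand), was the second most abundant gene of the set. It was at 0.75, 19.98 and 18.8 TPM in the knockout and at 1.54, 24.5 and 21.5 TPM with Casp8 put back, and its replicate 1 levels were a small fraction of the others in both groups. Ndn, which codes for necdin, a MAGE family protein expressed from the paternal allele, was at 0.08, 2.01 and 2.47 TPM in the knockout and 0.14, 3.19 and 1.63 TPM with Casp8 put back. Its neighbour Magel2, also imprinted, averaged 0 TPM in both lines. Auts2, a chromatin-associated regulator of transcription, was at 0.22, 1.38 and 2.10 TPM in the knockout and 1.98, 1.41 and 1.26 TPM with Casp8 put back, low in knockout replicate 1 alone.

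**Figure D2:**
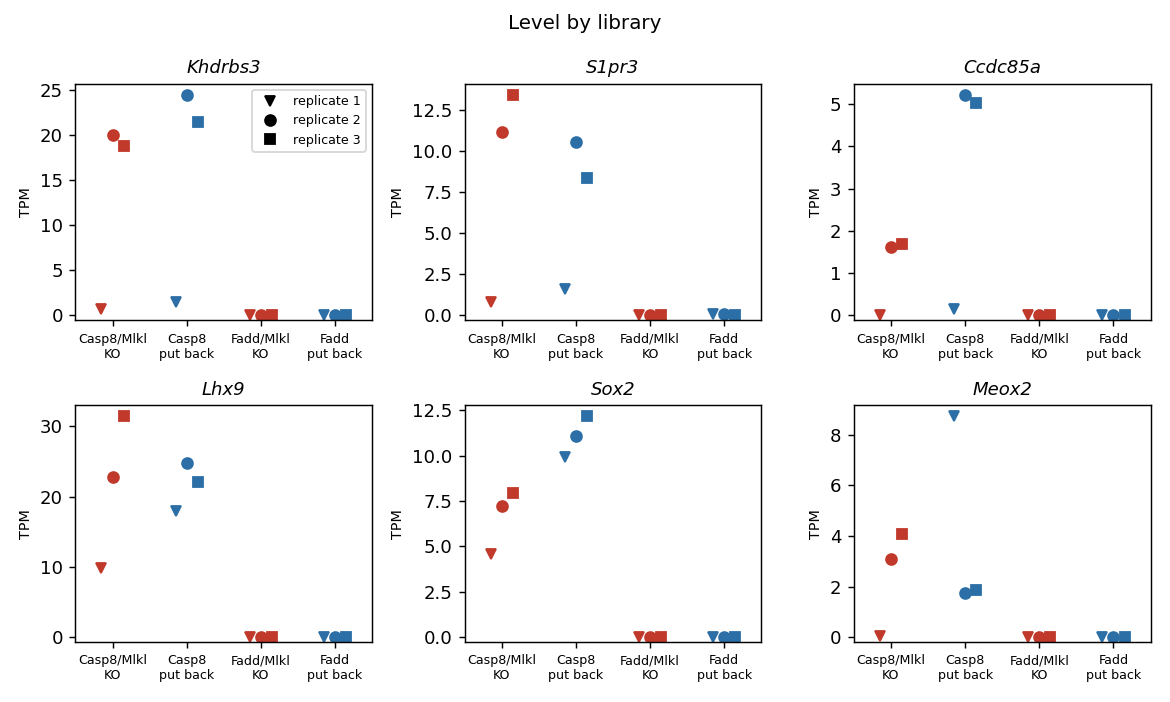
TPM of 6 genes in each library, with 1 point per library and a separate symbol for each replicate number, in the Casp8/Mlkl knockout, Casp8 put-back, Fadd/Mlkl knockout and Fadd put-back groups. Khdrbs3, S1pr3 and Ccdc85a were at 0 to 0.82 TPM in knockout replicate 1 and 0.14 to 1.59 TPM in put-back replicate 1, the lowest of their groups, Lhx9 and Sox2 were present in all 6, and Meox2 was highest in put-back replicate 1 at 8.72 TPM and near 0 in knockout replicate 1.

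Secreted factors and matrix proteins made up 6 of the set. Alkal1, a ligand of the ALK and LTK receptor kinases (chromosome 1, 6359218 to 6394731, plus strand), was at 2.02, 9.82 and 10.3 TPM in the knockout and 5.36, 12.01 and 9.49 TPM with Casp8 put back. Its span contains a processed pseudogene on the same strand, Gm2147, which averaged 0.62 TPM in the Casp8 line. Wnt5a, a ligand that mostly signals without beta-catenin, was at 0.60, 4.38 and 5.41 TPM in the knockout and 1.67, 3.58 and 2.51 TPM with Casp8 put back. The groups overlapped through replicate 1, while knockout replicates 2 and 3 lay above their put-back partners. Wnt2b, a ligand of the beta-catenin pathway, was at 0.01, 1.76 and 1.92 TPM in the knockout and 0.25, 2.20 and 1.70 TPM with Casp8 put back.

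Bmp6, a bone morphogenetic protein, was at 0.32, 2.85 and 3.08 TPM in the knockout and 0.27, 3.65 and 3.72 TPM with Casp8 put back. Bmp6 overlaps the abundant gene Txndc5 on the opposite strand, and no source used here states the strand setting of the counting, so reads of the 2 genes may not be told apart. Txndc5 averaged 100.3 TPM in the Casp8 line and 68.0 TPM in the Fadd line, where Bmp6 did not pass 0.08 TPM. Igfbp5, which binds insulin-like growth factors, was at 0, 4.42 and 6.03 TPM in the knockout and 0.35, 2.04 and 1.45 TPM with Casp8 put back. It had no counts in knockout replicate 1, which allows up to 0.0666 CPM, against 1961 and 1745 counts in the other knockout libraries. Tnn, a tenascin of the matrix, was at 0.01, 1.38 and 2.43 TPM in the knockout and 2.04, 2.79 and 2.54 TPM with Casp8 put back, so that its deficit was in knockout replicate 1 and not in the put-back culture of that number.

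Cell surface proteins numbered 4. S1pr3, a receptor for sphingosine 1-phosphate (chromosome 13, 51408639 to 51422797, plus strand), was at 0.82, 11.2 and 13.4 TPM in the knockout and 1.59, 10.5 and 8.33 TPM with Casp8 put back. Sirpa, the receptor for CD47, was at 0.33, 4.32 and 5.21 TPM in the knockout and 0.80, 2.48 and 3.02 TPM with Casp8 put back. Sema6a, a transmembrane semaphorin, was at 0.06, 1.88 and 3.89 TPM in the knockout and 0.11, 1.5 and 1.76 TPM with Casp8 put back. In all of these the replicate 1 libraries were the lowest of their group. Slc8a1, the sodium-calcium exchanger, had no counts in knockout replicate 1 and 1.88 and 4.15 TPM in the other knockout libraries, against 0.20, 2.24 and 1.80 TPM with Casp8 put back.

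Of the remaining genes, 5 were grouped as enzymes or cytoplasmic regulators. Arhgap24, an activator of GTP hydrolysis by Rac, was at 1.76, 3.95 and 5.5 TPM in the knockout and 2.93, 7.29 and 9.15 TPM with Casp8 put back. Hs3st3a1, which adds sulfate to heparan chains, was at 0.59, 1.24 and 1.82 TPM in the knockout and 0.85, 2.10 and 2.18 TPM with Casp8 put back. Arhgap24 held 37.2% and 35.6% of the mean of replicates 2 and 3 in knockout and put-back replicate 1, and Hs3st3a1 38.6% and 39.7%. Usp13, a deubiquitinase, was at 0.06, 2.17 and 2.71 TPM in the knockout and 0.16, 3.67 and 3.15 TPM with Casp8 put back. Rftn1, a lipid raft protein, was at 0.08, 2.06 and 2.44 TPM in the knockout and 0.10, 2.45 and 2.14 TPM with Casp8 put back. Cers4, a ceramide synthase, was at 0.19, 2.23 and 2.80 TPM in the knockout and 0.19, 2.27 and 1.53 TPM with Casp8 put back. Usp13, Rftn1 and Cers4 all stood at 10.0% or less of replicates 2 and 3 in both replicate 1 libraries. Ccdc85a, for which no role is given here, was at 0, 1.61 and 1.69 TPM in the knockout and 0.14, 5.22 and 5.02 TPM with Casp8 put back.

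The cultures of the Casp8 line differed from each other most by replicate number. For the 27 genes, the median log2 ratio of the highest to the lowest Casp8-line library was 3.63 on log2(TPM + 0.1), with Sim2 lowest at 0.63 and Meox2 highest at 6.08, against a median of 0.70 over the 10178 protein-coding genes on in this line. The median was 0.74 when both replicate 1 libraries were left out, a setting chosen after seeing the data, and 1.91 with a pseudocount of 1 in place of 0.1. All 27 genes reached 1 TPM in each library of replicates 2 and 3, while 7 did in knockout replicate 1 and 13 in put-back replicate 1. In knockout replicate 1, 10 of the 27 were under 0.1 TPM, the limit set for the Fadd line, and 3 had 0 counts. Of the 10178 genes, 15 were under 0.1 TPM in that library. Knockout replicate 1 held a median of 6.93% of the mean of knockout replicates 2 and 3, and put-back replicate 1 a median of 29.1%. The same medians over the 10178 genes were 97.6% and 100.1%. In bulk RNA, fewer cells that express a gene and less RNA per cell cannot be told apart. The rule asks for a mean of 1 TPM per group, so it allowed a low replicate 1 without asking for one directly. It did choose genes by a difference between the lines. On the first principal component both replicate 1 libraries lay nearer the Fadd line than the other Casp8-line libraries did. The comparisons of replicate 1 with all genes, here and below, are therefore not independent of the rule.

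The retained share ran from 0 to 69.0% in knockout replicate 1. The 7 genes at 1 TPM or more in both replicate 1 libraries were Lhx9, Sox2, Alkal1, Arhgap24, Sim2, Zfp503 and Ebf1, of which 5 are transcription factors. Of the 10178 protein-coding genes on in this line, 9813 were at that level in both. The 7 ranked from 1 (Lhx9) to 10 (Ebf1) of the 27 by mean Casp8-line TPM, so this cut also follows level. At the other end, Khdrbs3, Ccdc85a, Usp13, Slc8a1, Ndn, Rftn1 and Sema6a kept under 10% in both. Of the 10178 genes, which include the 27, 11 did so. For 24 of the 27 the percentage was larger in put-back replicate 1 than in knockout replicate 1. No share over all genes is given for this count, so it is not read as particular to the 27. Meox2, Auts2 and Ebf1 exceeded 100% in put-back replicate 1, at 481.8%, 148.3% and 113.0%, but held 0.84%, 12.6% and 46.9% in knockout replicate 1. By role, the median percentages in knockout and put-back replicate 1 were 35.7% and 72.1% for the 8 transcription factor genes. They were 3.87% and 6.71% for the 3 other nuclear proteins and 5.67% and 35.0% for the 6 secreted ones. For the 4 cell surface proteins they were 4.38% and 13.4%, and for the 5 enzymes or cytoplasmic regulators 7.55% and 10.0%. The transcription factor genes themselves ran from 0.84% to 69.0% in knockout replicate 1, and no difference between roles was tested.

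**Figure D3:**
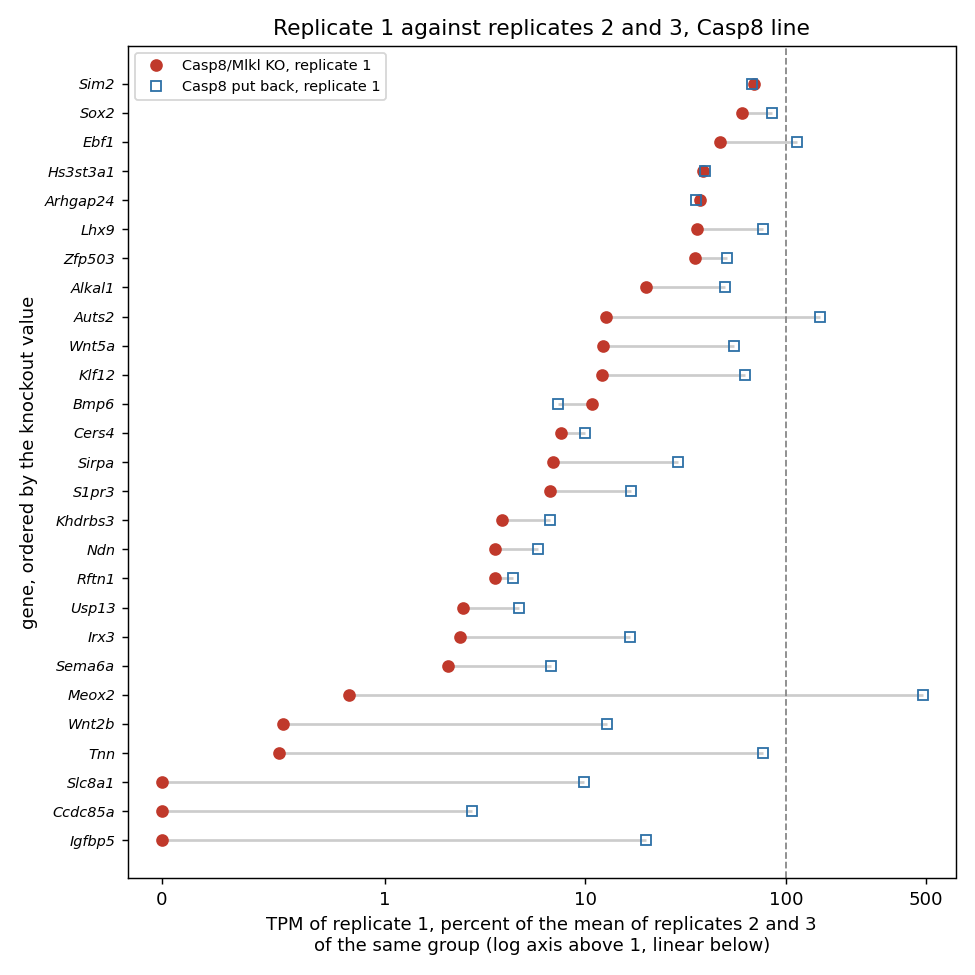
TPM of replicate 1 as a percentage of the mean of replicates 2 and 3 of the same Casp8-line group, for each gene, in the Casp8/Mlkl knockout (filled circles) and with Casp8 put back (open squares), with a dashed line at 100%. Knockout values run from 0 to 69.0% and put-back values from 2.73% to 481.8%.

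A fit with a term for the replicate number within each line tested whether the 3 numbers differed in the Casp8 line, for both vector groups together. Of the 27 genes, 6 were called, or 22.2%, against 1.87% of all 16396 genes tested (edgeR quasi-likelihood F test, adjusted p under 0.05). All 6 were lower in replicate 1, a direction in which 0.933% of all genes were called. The adjusted p-values belong to the test of any difference among the 3 numbers. The log2 ratios beside them describe direction and size and were not tested by themselves. Bmp6 had a log2 ratio of replicate 1 over replicates 2 and 3 of -3.91 (edgeR adjusted p = 0.01), Khdrbs3 of -4.32 (adjusted p = 0.0199), and S1pr3 of -3.18 (adjusted p = 0.0231). Rftn1 had a log2 ratio of -4.66 (edgeR adjusted p = 0.0235), Ndn of -4.37 (adjusted p = 0.0344) and Usp13 of -4.44 (adjusted p = 0.0406). The count was 16 without knockout replicate 1 (17.6% of all genes called) and 23 without put-back replicate 1 (21.6%), where replicate 1 rests on a single library. Without knockout replicate 1, 15 of the 16 were lower in replicate 1 and 1, Meox2, was higher. The count was 1 or 2 when any other Casp8-line library was left out, with 0.153 to 0.313% of all genes called. The edgeR count was 0 when the 6 Casp8-line libraries were fitted alone, with 17 of the 27 at an unadjusted p under 0.05 (9.68% of all genes) and none of all genes called. It was 16 with DESeq2 on all libraries, which called 11.6% of all genes.

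In direction, 26 of the 27 genes were lower in replicate 1, all but Meox2 (log2 ratio 0.25), against 49.0% of all genes tested. The median log2 ratio was -2.75 for the 27 and 0.01 for all genes, and 16 of the 27 were at least 4-fold lower, against 2.42% of all genes. In TPM, both replicate 1 libraries lay below the other 4 Casp8-line libraries for 22 of the 27, against 14.6% of the genes tested. The exceptions were Sox2, Ebf1, Meox2, Tnn and Auts2. The 4 Y-linked genes, left out of the set, stood at 15.7 to 33.5% of replicates 2 and 3 in knockout replicate 1 and 41.4 to 54.5% in put-back replicate 1. The labels do not say what a replicate number marks.

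**Figure D4:**
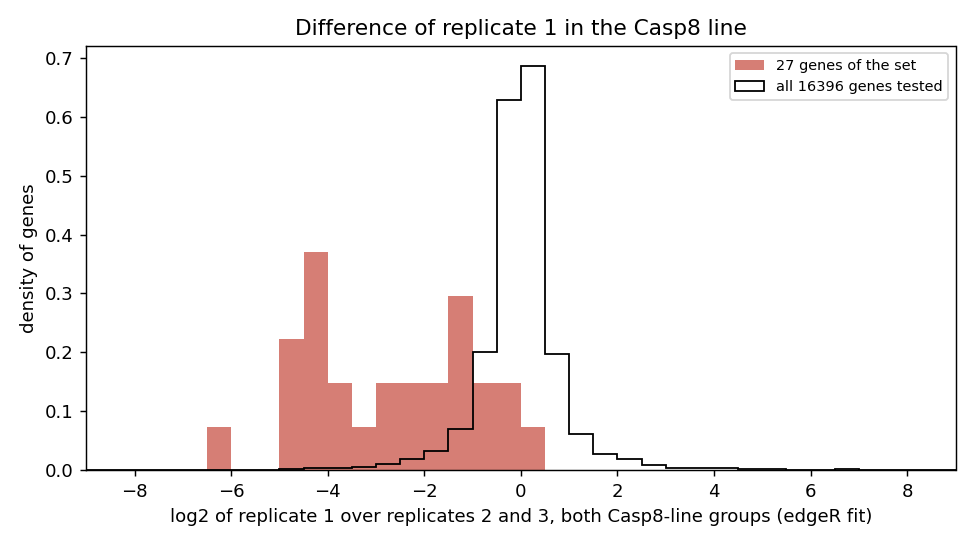
Density of genes by log2 ratio of replicate 1 over replicates 2 and 3 in the Casp8 line, from the edgeR fit, for the 27 genes (filled) and all 16396 genes tested (outline). The 27 lie to the left of the peak of all genes, with medians of -2.75 and 0.01.

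Summed levels of some cell type marker lists also differed by replicate number. In the edgeR test of replicate number, the only marker called was 1 of the smooth muscle and pericyte list. For scale, both replicate 1 libraries lay below the other 4 for 14.6% of all genes tested. Of 12 smooth muscle and pericyte markers, 8 were lower in both replicate 1 libraries than in the other 4, and 1, Abcc9, was at 0 in all 6. Their summed level was 237.4 TPM in knockout replicate 1 and 94.1 TPM in put-back replicate 1, against 689.9 to 1130 TPM in replicates 2 and 3. The Fadd line stood at 4.48 to 41.9 TPM, and edgeR called 1 of the 9 markers tested lower in replicate 1. Of 12 neural markers, 3 were lowest in both (Map2, Ncam1 and Nes), with sums of 46.5 and 59.0 TPM in replicate 1, against 101.4 to 129.6 TPM. Dcx, Rbfox3 and Snap25, which mark neurons, were at 0 in all 6 Casp8-line libraries. Of 14 fibroblast genes, Col3a1, Pdgfra, Pdgfrb and Twist1 were lowest in both replicate 1 libraries, but the summed level was 2512 TPM in knockout replicate 1 and 3665 TPM in put-back replicate 1, against 2395 to 3033 TPM. Of 12 skeletal muscle markers, 2 were highest in both, with sums of 1.97 and 1.66 TPM, against 0.20 to 0.32 TPM, and Myod1, Myog, Myh3 and Pax7 were at 0. By summed level, the mesothelial and epithelial lists were highest in knockout replicate 1 among the Casp8-line libraries. Mesothelial markers summed to 20.9 TPM there, against 4.13 and 4.60 TPM in knockout replicates 2 and 3 and 3.92 to 5.31 TPM with Casp8 put back. Epithelial markers summed to 6.67 TPM in knockout replicate 1, against 2.36 and 2.84 TPM in the other knockout libraries. With Casp8 put back they summed to 2.45 TPM in replicate 1 and to 1.72 and 1.82 TPM in replicates 2 and 3. Of the 14 epithelial markers, 2 were highest in both replicate 1 libraries, and Cldn4, Cldn7, Esrp1 and Krt5 were at 0 in the Casp8 line. Osteoblast markers summed to 36.5 TPM in knockout replicate 1 and 47.4 to 66.9 TPM with Casp8 put back. The other knockout libraries were the highest, at 111.3 and 119.0 TPM. The endothelial and leukocyte lists had 2 and 1 genes at a mean of 1 TPM or more in the Casp8 line. The part of any of these in the replicate 1 values was not tested.

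Between cells without and with caspase-8, no gene of the set passed the test. In the Casp8/Mlkl knockout against Casp8 put back, 0 of the 27 were called by edgeR or by DESeq2 (adjusted p under 0.05), and 1 had an unadjusted p under 0.05. Over all 16396 genes, edgeR called 1 (0.0061%), which was Casp8, DESeq2 called 143 (0.872%), and 5.67% had an unadjusted p under 0.05. The log2 changes of the 27 ran from -1.81 (Ccdc85a) to 1.39 (Igfbp5), with 10 above 0 and 17 below, a median of -0.17 against 0.01 for all genes tested, and standard errors of 0.25 to 1.55.

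The labels call the cultures of a group independent and give no pairs. A block by replicate number treats same-numbered cultures as pairs. With it, edgeR called 0 of the 27 and 6 of all genes (0.0366%), and the signs shifted. Then 5 of the 27 were above 0 and 22 below, with a median of -0.49 against 0.00284 for all genes tested, of which 49.6% were below 0. Sox2 (-0.77), Ccdc85a (-2.27), Arhgap24 (-0.79) and Hs3st3a1 (-0.51) had an unadjusted p under 0.05, 4 of the 27 against 11.3% of all genes, with edgeR adjusted p of 0.271, 0.341, 0.414 and 0.442. Igfbp5, at 1.39 without the block, was at 0.19 with it (edgeR adjusted p = 0.968). Khdrbs3, Sox2, Arhgap24, Ccdc85a, Usp13, Tnn and Hs3st3a1 were lower in the knockout library than in the put-back library of the same number in all 3 pairs, 7 of the 27 against 12.5% of all genes tested. None of the 27 was higher in all 3 pairs, against 11.3% of all genes tested.

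Sox2 was the one gene of the set whose knockout libraries all lay on one side of the put-back libraries. It averaged 6.59 ± 1.77 TPM in the knockout and 11.1 ± 1.12 TPM with Casp8 put back (SD, n = 3 each), a log2 change of -0.75 (SE 0.25) with an edgeR p of 0.0212 and an adjusted p of 0.736 over all genes. Knockout libraries all above the put-back libraries were found in 4.06% of all genes tested and for 0 of the 27.

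Without both replicate 1 libraries, the same comparison had a median standard error of 0.39, against 0.84 with them. The edgeR count was then 0 of the 27 (0.658% of all genes), with 4 at an unadjusted p under 0.05 (15.5% of all genes), and the DESeq2 count 4 of the 27, or 14.8%, against 6.72% of all genes. By DESeq2 without these libraries, Igfbp5 was higher in the knockout by a log2 of 1.55 (adjusted p = 0.000141), Meox2 by 0.96 (adjusted p = 0.0127) and Sirpa by 0.91 (adjusted p = 0.0167). Ccdc85a was lower, with a log2 change of -1.76 (adjusted p = 1.57e-08). By edgeR the changes were 1.52 (SE 0.39, adjusted p = 0.121) for Igfbp5 and -1.79 (SE 0.34, adjusted p = 0.0825) for Ccdc85a. Meox2 changed sign, from -0.78 (SE 1.04) with all libraries to 0.93 (SE 0.35) by edgeR. Its highest Casp8-line level was in put-back replicate 1. Knockout replicates 2 and 3 lay above their put-back partners for 7 of the 27 and below for 8, against 31.3% and 29.1% of all genes tested.

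**Figure D5:**
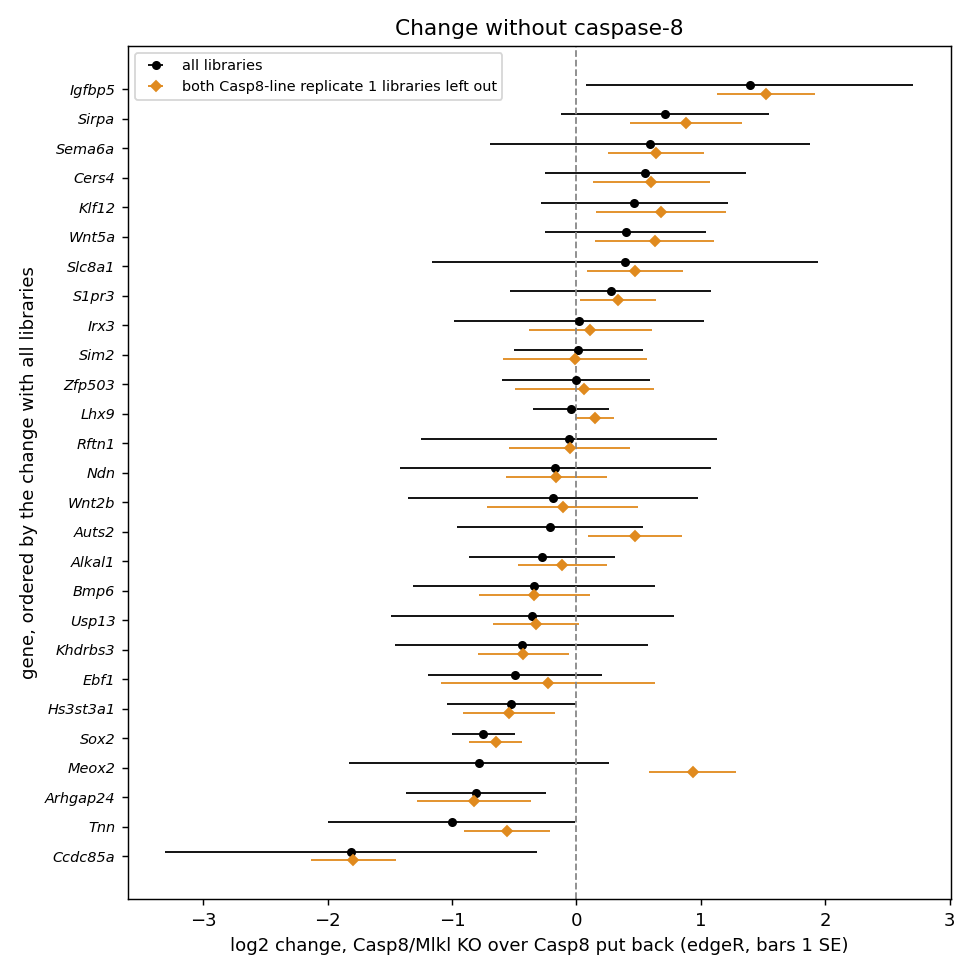
Log2 change of each gene in the Casp8/Mlkl knockout over Casp8 put back from edgeR, with bars of 1 standard error, with all libraries (circles) and with both Casp8-line replicate 1 libraries left out (diamonds). With all libraries most bars cross 0, and Ccdc85a and Igfbp5 are the extremes at -1.81 and 1.39.

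The 27 genes were scattered over the genome. They lay on 14 chromosomes, at most 4 on any one and none on the X chromosome, and no member had a start within 500 kb of another. The closest pair was Usp13 and Sox2 on chromosome 3, with starts 1833 kb apart. None of the 54 protein-coding genes that flank the members was itself a member, and 31 of these flanking genes averaged 1 TPM or more in the Fadd line. Both flanking genes did so for 11 members. No share over all genes was computed for these counts. With 27 of 21900 protein-coding genes chosen, few members would be neighbours in any case. Lhx9 lay between Nek7 and 2310009B15Rik, at 19.1 and 12.4 TPM in the Casp8 line and 13.9 and 11.01 TPM in the Fadd line. Wnt2b lay between St7l and Cttnbp2nl, at 6.51 and 9.84 TPM in the Casp8 line and 4.33 and 5.94 TPM in the Fadd line. Irx3 was off in the Fadd line while Irx5, the next gene of the same cluster, averaged 3.02 TPM in the Casp8 line and 1.17 TPM in the Fadd line. The genes also tended to be long, with a median span of 68.6 kb against 24.3 kb for protein-coding genes on in the Casp8 line. Of the 27, 11 were over 100 kb, or 40.7%, against 12.5%, and Auts2 was the longest at 1106 kb.

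Wider lists of developmental genes held some of the 27. Of 115 positional and developmental transcription factor genes, 44 averaged 1 TPM or more in the Casp8 line and 40 in the Fadd line, and 4 (Lhx9, Irx3, Ebf1 and Sim2) were in the set. Of 103 signalling ligands and secreted antagonists, 48 did so in the Casp8 line and 36 in the Fadd line, and 3 (Wnt5a, Wnt2b and Bmp6) were in the set. For scale, 27 of the 10178 protein-coding genes on in the Casp8 line were in the set. The transcription factor list leaves out Sox2, Meox2, Zfp503 and Klf12. Both lists were chosen with earlier results known, and these shares were not tested. In the knockout against Casp8 put back, 0 of 76 tested members of either list were called in either direction by edgeR. Between replicate numbers, 6 transcription factor genes were called higher and 2 lower in replicate 1, and 1 ligand gene higher and 3 lower, out of 76 tested in each list and against 1.87% of all genes called in either direction. Of Irx3's relatives, Irx1 averaged 8.49 and 8.44 TPM in the Casp8/Mlkl knockout and Casp8 put-back groups and 2.17 and 3.61 TPM in the Fadd/Mlkl knockout and Fadd put-back groups. Of the Wnt ligands, Wnt10b averaged 10.2 and 9.18 TPM in those Casp8-line groups and 0.32 and 4.63 TPM in those of the Fadd line. Of the marker lists for other cell types, the neural list alone held a member, Sox2.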

How the data were processed

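A stranded total RNA kit and paired-end sequencing were used, per the labels' protocols. The submitters' processing notes name Trim Galore 0.5.0, STAR 2.7.5a and RSEM, and the labels give mm10 with GENCODE M22. The gene tables deposited by the authors hold, per the file headers, expected counts, which are not normalised, and TPM, which the authors scaled per library and wrote to 2 decimals. Of 55665 rows, 92 spike-in rows with 0 counts were left out. The FPKM column and a table on endogenous retroviruses were not used here.

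Members were chosen on TPM. For tests, expected counts were rounded, filtered with filterByExpr (minimum count 10), scaled by TMM and fitted in edgeR 4.0.16 (R 4.3.3) with 1 mean per group over all 12 libraries. Adjusted p-values are Benjamini-Hochberg over all genes tested. All 27 genes passed the filter, through the Casp8-line libraries in which they were chosen to be on. A further fit had the replicate number within each line as a term, and DESeq2 1.42.0, RLE scaling, no filter, the 6 Casp8-line libraries alone and leaving out each library were alternatives. The fits were tested on simulated data. Deviations of same-numbered Casp8-line libraries from their group means had correlations of 0.203, 0.305 and 0.127 over 16396 genes. Libraries of different numbers were not compared. Deviations cancel out within a group, so with replicate 1 apart in both groups these values do not show pairing of replicates 2 and 3. Reading the numbers as pairs is therefore an assumption that the labels do not state. P-values set changes against the spread between cultures within groups. In the main fits this spread was estimated over all 12 libraries, including the Fadd line, where the 27 were at or near 0. No gene was called between replicate numbers when the 6 Casp8-line libraries were fitted alone. Library totals of 33918359 or more set the counting precision.

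The members, lists and tests were chosen with earlier results of these data known, and roles were assigned after the members were seen. All 27 genes are named, with others named from the lists, the limits of the rule and the flanking positions. Positions are from GENCODE M21 on the same genome, which matched 55394 of 55573 gene identifiers.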

Additional observations from a re-analysis of the deposited data

How the results depend on the processing

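The number of genes depends on both limits of the rule. It was 17 with a Fadd-line limit of 0.05 TPM and 88 with 0.5 TPM, and 44 with a Casp8-line minimum of 0.5 TPM and 14 with 2 TPM. Leaving out 1 library gave 19 to 33.

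In the Casp8/Mlkl knockout against Casp8 put back, 0 of the 27 were called by edgeR or DESeq2 under each alternative except DESeq2 without both replicate 1 libraries. Over all genes the count was 1 in edgeR, 4 with no filter, 0 on the 6 Casp8-line libraries alone, 143 with DESeq2 and 6 with the replicate block, which changed no call among the 27. It was 0 to 22 with 1 library left out, the highest without put-back replicate 1. Leaving out both replicate 1 libraries, chosen after seeing the data, gave 0 of the 27 and 111 of all genes in edgeR, and 4 and 1133 in DESeq2. Meox2 then turned to 0.96 on the log2 scale in DESeq2. Of 351 alternative log2 changes, 52 had another sign than in edgeR with all libraries, over 17 genes.

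Between replicate numbers, the count among the 27 was 6 in edgeR, 16 with DESeq2, 0 on the 6 libraries alone and 1 to 23 with 1 library left out. Over all genes it was 306, 1897, 0 and 26 to 3645. The log2 ratio of Meox2 ran from -6.65 (without put-back replicate 1) to 2.20 (without knockout replicate 1). The median spread of 3.63 was 1.91 with a pseudocount of 1 and 0.74 without both replicate 1 libraries. The causes of these differences were not tested.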
